A study of Homo sapiens with 7 samples.

Results

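In HepG2 cells carrying both PPARα and ERα, an antibody to PPARα gave 7965 regions that were called in both libraries of that condition and in no library of the other conditions. They made up 8.63% of the 92292 regions called in any library. Called stretches of the 6 libraries that shared at least 1 bp on chromosomes 1 to 22 and X were merged, and a region was kept when it held a peak of both PPARα+ERα libraries and none of the other 4. The regions were thus chosen by the peak calls of these same libraries, so their number, their presence with ERα and their absence elsewhere are descriptions without a test. HepG2 is a human line from a hepatocellular carcinoma. All 6 libraries came from cells transfected with a PPARα plasmid and given 10 µM WY14643, a PPARα agonist, for 2 h, starting 48 h after transfection. The 2 PPARα libraries had no other treatment in the labels. The 2 PPARα+ERα libraries also received an ERα plasmid and 10 nM PPT, an ERα agonist, for 45 min before WY14643, and the 2 PPARα+ERβ libraries an ERβ plasmid and 10 nM DPN, an ERβ agonist, in the same way. The ERα plasmid and PPT were always given together, so they cannot be told apart. Both receptors were forced by plasmids, the antibody does not separate plasmid PPARα from the cell's own, and no library held ERα without PPARα. The 2 libraries of a group are not stated to come from separate cultures, so their spread may be technical. The sample without antibody was not analysed here.

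PPARα is a nuclear receptor that senses fatty acids and, paired with RXR, binds repeats of the motif AGGTCA to switch on fatty acid oxidation in liver. ERα binds palindromes of a closely related motif when estrogen or an agonist such as PPT is present, and both receptors draw on a shared pool of coactivators. A ChIP peak marks where fragments pulled down by the antibody pile up above the surrounding level, and a peak that is absent from a list was not called, which is not the same as an unbound site.

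Some regions overlapped promoter windows, whose sequences can be shown. The RefSeq promoter table of GRCh38.p14 gives 34961 windows from 250 bases before to 50 after a start, and 62 of the 7965 regions overlapped 74 of them. The upstream parts of 6 windows are printed here because their regions were among the strongest at gene starts or lay at genes of the proteasome and of receptor coactivation. They are COG4 at chr16:70523555-70523804 (minus strand), PSMD1 at chr2:231056617-231056866 (plus), PSME3IP1 at chr16:57186040-57186289 (minus), MED1 at chr17:39451264-39451513 (minus), PSMA6 at chr14:35292067-35292316 (plus) and MITD1 at chr2:99181059-99181308 (minus). Capitals mark exact matches, on either strand, to any of 15 motifs. The region covers all 250 printed bases of PSMD1 and MED1, bases 30 to 250 of PSME3IP1, 163 to 250 of COG4, 1 to 101 of PSMA6 and 1 to 120 of MITD1, counted from the first printed base. The mean summit of both libraries lay among the printed bases in MED1 alone, 177 bp upstream of the start. It was 294, 335 and 408 bp upstream in PSMD1, PSMA6 and MITD1, and 36 and 21 bp downstream in COG4 and PSME3IP1.
COG4: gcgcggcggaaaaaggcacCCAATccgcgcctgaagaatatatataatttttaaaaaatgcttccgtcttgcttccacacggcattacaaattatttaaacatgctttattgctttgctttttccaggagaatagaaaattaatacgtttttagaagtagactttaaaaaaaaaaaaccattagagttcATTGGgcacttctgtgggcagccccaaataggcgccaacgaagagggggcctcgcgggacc
PSMD1: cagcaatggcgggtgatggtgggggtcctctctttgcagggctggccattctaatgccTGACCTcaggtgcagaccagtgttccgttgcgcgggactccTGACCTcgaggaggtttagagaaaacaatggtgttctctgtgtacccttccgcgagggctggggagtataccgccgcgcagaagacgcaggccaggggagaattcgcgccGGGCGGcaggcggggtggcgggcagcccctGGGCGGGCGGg
PSME3IP1: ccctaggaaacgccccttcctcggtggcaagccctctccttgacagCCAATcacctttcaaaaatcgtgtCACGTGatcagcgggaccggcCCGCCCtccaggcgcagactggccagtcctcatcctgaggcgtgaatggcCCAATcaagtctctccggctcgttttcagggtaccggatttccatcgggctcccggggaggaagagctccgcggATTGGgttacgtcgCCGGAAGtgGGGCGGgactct
MED1: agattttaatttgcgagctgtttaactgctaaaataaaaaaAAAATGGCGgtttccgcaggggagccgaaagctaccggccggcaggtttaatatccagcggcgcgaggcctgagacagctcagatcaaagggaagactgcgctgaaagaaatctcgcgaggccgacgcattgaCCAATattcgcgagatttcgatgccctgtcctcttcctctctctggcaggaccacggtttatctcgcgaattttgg
PSMA6: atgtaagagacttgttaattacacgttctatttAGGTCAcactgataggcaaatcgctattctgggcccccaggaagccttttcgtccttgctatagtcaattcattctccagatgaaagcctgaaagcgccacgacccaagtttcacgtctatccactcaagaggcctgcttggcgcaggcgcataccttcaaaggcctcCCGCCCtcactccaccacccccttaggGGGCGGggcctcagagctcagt
MITD1: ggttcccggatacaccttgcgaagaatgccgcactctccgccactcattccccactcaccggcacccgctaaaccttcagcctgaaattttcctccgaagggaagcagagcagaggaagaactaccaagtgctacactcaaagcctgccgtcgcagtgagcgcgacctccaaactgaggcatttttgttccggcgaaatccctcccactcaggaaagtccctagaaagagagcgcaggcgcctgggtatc
COG4 held 2 CCAAT boxes, 1 of them inside the region, and PSME3IP1 held 3 of them with an E-box (CACGTG), an ETS core (CCGGAAG) and 2 SP/KLF boxes (GGGCGG). PSMD1 held 2 copies of the receptor motif AGGTCA, read on the minus strand, and 3 SP/KLF boxes, of which the last overlap. PSMA6 held 1 AGGTCA inside the region and 2 SP/KLF boxes outside it, MED1 a CCAAT box and a YY1 core (AANATGGCG), and MITD1 none of the 15.

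Across the 74 windows, AGGTCA was present in 10.8% (Wilson 95% interval 5.58 to 19.9%), against 13.8% of all 34961 windows. No window held the exact PPAR response element, a DR1 that contains AGGTCA 2 times, or the exact estrogen palindrome, which 0.0229% and 0.0572% of all windows held. CCAAT stood in 36.5% of the 74 windows and 34.6% of all, GGGCGG in 45.9% and 45.0%, CCGGAAG in 17.6% (10.6 to 27.8%) and 10.3%, CACGTG in 13.5% (7.51 to 23.1%) and 7.27%, and AANATGGCG in 9.46% (4.66 to 18.3%) and 3.20%. The interval lies above the share of all windows for AANATGGCG and, narrowly, for CACGTG and CCGGAAG, before any allowance for the 15 motifs looked at. It also does so narrowly for TGACGTCA, the cAMP response element, with 5.41% (2.12 to 13.1%) against 1.85%. These intervals cover counting error only, and several windows share a region. The G and C content of the 74 windows was 56.0% ± 11.7 (SD over windows), against 57.6% ± 13.2 over all windows and 42.5% ± 10.7 in the 19 windows under PPARα-only regions.

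Motifs were then compared over whole libraries, in every window that a library's peaks overlapped. CCAAT was in 39.2% and 38.7% of the windows of the PPARα+ERα libraries and in 29.8%, 32.1%, 26.0% and 29.5% of those of the other 4. CACGTG was in 10.8% and 9.94%, against 4.39%, 5.95%, 6.87% and 8.22%. Both PPARα+ERα libraries stood above all others for these motifs, with p = 0.133 in an exact two-sided permutation test over libraries (2 against 4), the smallest p this design allows. Adjusted over the 15 motifs, p was 0.80. These windows include those under the PPARα+ERα-only regions. Without those, CCAAT was in 42.0% and 39.1% and CACGTG in 9.09% and 8.18% of the PPARα+ERα windows, the last value overlapping the other libraries. Over the full lists, AGGTCA was in 12% and 14.4% of windows, within or just under the 13.7% to 18.4% of the other libraries (exact permutation p = 0.40). CCGGAAG was in 11.4% and 12.2%, against 12.3% and 10.7% with PPARα and 17.6% and 15.1% with PPARα+ERβ. AANATGGCG was in 6.96% and 8.84%, against 3.51%, 2.38%, 6.87% and 8.22% in the same order. TGACGTCA was in 3.80% and 4.97%, against 3.51%, 2.38%, 4.58% and 3.42%. For each of these motifs the libraries overlapped (exact permutation p = 0.53, 0.27 and 0.27).

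Few of the sites called in both PPARα+ERα libraries were shared with the other conditions. Of 8866 such regions, 89.8% had no peak in the other 4 libraries, 461 had a peak in 1 of them, and 123 in all 4. Among the 461 that 1 other library kept out, that library was from the PPARα+ERβ group for 156 and 218 regions and from the PPARα group for 58 and 29. These 461 had median stacks of 11 and 11 fragments in the PPARα+ERα libraries, and the weakest decile of the 7965 had 8 and 8. A further 14314 and 17163 regions were called in just 1 of the PPARα+ERα libraries.

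The PPARα+ERα-only regions were low piles at sites of low local background, where the PPARα-only regions were tall piles at sites of high local background. Stack heights and this background were worked back from the fold and p value that the authors' lists give per peak. In most shared regions the background kept a nearly fixed ratio between libraries, also across conditions (given below). It thus need not be the level around the peak in that library, and its source was not tested. In the 7965 regions the stack had a lowest value, median and highest value of 4, 10 and 89 fragments in the first library and 4, 11 and 89 in the second. From 10 to 19 fragments were stacked in 50.1% and 52.7% of the regions, and 40 or more in 19 and 23 regions. The 5356 regions called in both PPARα libraries and in no other had medians of 44 and 60 fragments, and the 1132 called in both PPARα+ERβ libraries and in no other had 22 and 26. Median folds over the local background were highest in the PPARα+ERα-only regions, at 6.09 and 6.34. They were 3.28 and 3.92 in the PPARα-only and 3.98 and 3.95 in the PPARα+ERβ-only regions. The local background, in multiples of the lowest of the same list, had medians of 1.47 and 1.49 in the PPARα+ERα-only regions, 21.7 and 21.7 in the PPARα-only regions and 7.42 and 8.52 in the PPARα+ERβ-only regions. It was at most 3 times the lowest in 79.9% (79.0 to 80.8%) and 79.8% of the PPARα+ERα-only regions, in 6.78% and 6.74% of the PPARα-only and in 24.6% and 24.6% of the PPARα+ERβ-only regions. Depth differed too: the lowest background corresponded to 1 fragment per 780 and 725 bp in the PPARα+ERα libraries and per 450 to 537 bp in the others. The low background was a trait of the whole PPARα+ERα lists: 74.3% and 76.9% of all their peaks had at most 3 times the lowest, against 12.8 to 24.8% in the others, and 71.5% and 75.7% did with the PPARα+ERα-only regions left out. The part of depth in these differences was not tested.

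**Figure D1:**
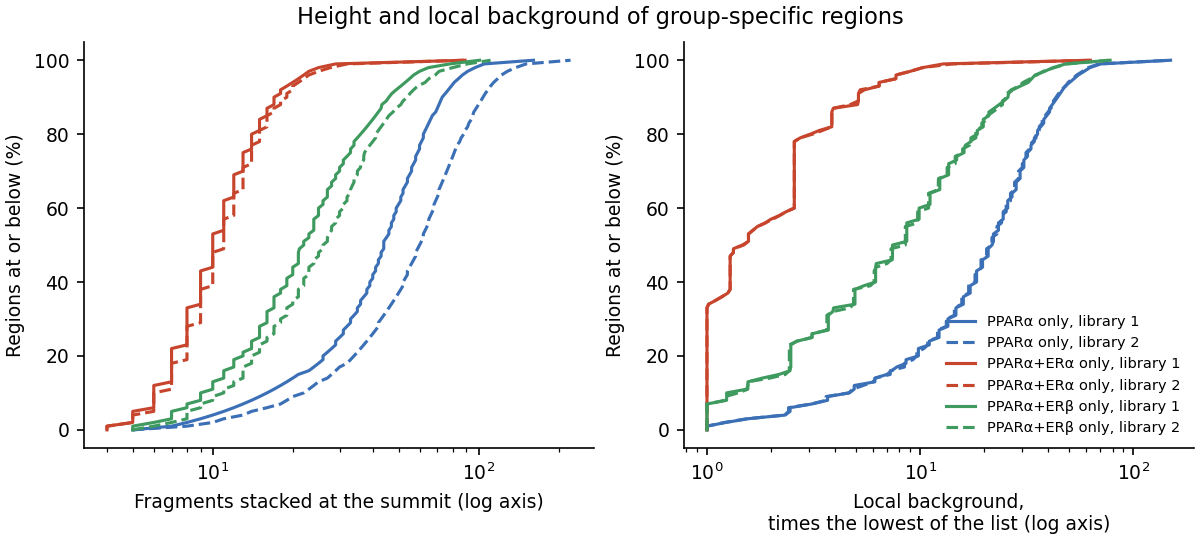
Cumulative share of regions (y, %) against fragments at the summit (left) and local background as multiples of the lowest of the list (right), both on log axes, for the 3 sets of group-specific regions, with a line per library. The PPARα+ERα-only curves lie to the left in both panels, with medians of 10 and 11 fragments and 1.47 and 1.49 times the lowest background.

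In most of these regions, which were kept because both PPARα+ERα libraries had a peak there, the 2 summits lay close together. That choice itself favours close summits and like fragment numbers, so the values describe the kept regions alone. A further 14314 and 17163 regions were called in just 1 of the 2 libraries. Fragment numbers agreed within 2-fold in 96.7% of the 7965 regions, with Pearson's r = 0.66 on the log2 scale across regions, which share their chromatin and are no replicates. The summits of both libraries lay on the same base in 43.7% of regions, within 5 bp in 58.6% and within 50 bp in 84.2%, with a median distance of 2 bp. Peak starts matched within 2 bp in 51.8% and peak ends in 51.6%. Such coincidence was seen in every pair of libraries, also across conditions: over the regions shared by a PPARα+ERα library and a library of another group (8 pairs, 722 to 1615 regions), median summit distances were 5 to 9 bp, and starts matched within 2 bp in 37.7 to 44.7%. Among the other 4 libraries the median distances were 0 to 2 bp. Whether libraries share fragments was not tested. Where summits lay within 5 bp and both backgrounds were over 2 times the lowest, the ratio of the 2 backgrounds was within 1% of its median in 98.9% of 2339 PPARα+ERα-only regions, and in 76.8 to 83.1% of shared regions in the 8 pairs of a PPARα+ERα library with another group. Pairs of the other 4 libraries ranged from 81.9 to 97.3%. The control behind these backgrounds is not given, and whether the lists share one was not tested.

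**Figure D2:**
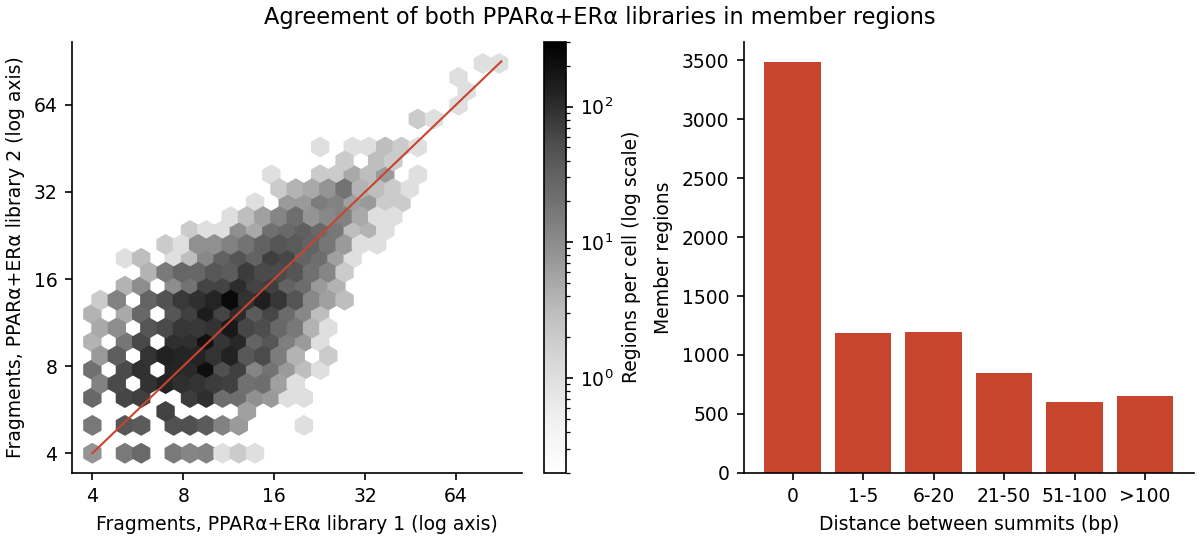
Left, fragments at the summit in the first (x) and second (y) PPARα+ERα library on log axes for the 7965 regions, shaded by the number of regions per cell, with the line of equality in red. Right, number of regions by distance between the summits of both libraries in bp, with 3483 regions on the same base.

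The regions were spread unevenly over the chromosomes. Chromosome 2 held 15.3% of the PPARα+ERα-only regions against 10.4% of all regions, and chromosome 20 held 5.93% against 3.08%. Chromosome 14 held 4.81% against 3.64%, and chromosome 16 held 4.76% against 3.66%, while chromosome 17 held 3.18% against 3.56%. Chromosome 6 held 7.52% (6.96 to 8.12%) against 6.48%. HepG2 is known for extra copies of chromosomes 2, 14, 16, 17 and 20. Together those 5 held 34.0% (33.0 to 35.0%) of the PPARα+ERα-only regions, 24.3% of all regions, 22.3% (21.2 to 23.4%) of the PPARα-only and 28.0% (25.5 to 30.7%) of the PPARα+ERβ-only regions. This group, without chromosome 6, was put together after its values were seen. The X chromosome held 57 PPARα+ERα-only regions, 0.716% (0.553 to 0.926%), against 2.39% of all regions.

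Over whole peak lists, which hold these same regions, the 5 chromosomes held 28.0% and 27.2% of the peaks of the PPARα+ERα libraries and 22.9 to 24.7% of those of the other 4, a mean difference of 3.66 percentage points (exact two-sided permutation p = 0.133, 0.20 adjusted over 3 measures). X held 1.47% and 1.32% of peaks, against 2.43 to 2.96%, with the same p values. With the peaks of the PPARα+ERα-only regions left out, the 5 chromosomes held 25.1% and 24.5% of the remaining PPARα+ERα peaks, which overlaps the other libraries, and X held 1.83% and 1.57%, which does not. Neither test could reach 0.05. Stacks were also taller on the 5 chromosomes, with medians of 12 and 13 fragments in the PPARα+ERα-only regions there and 9 and 10 elsewhere. The local background was higher there as well, with medians of 2.15 and 2.11 times the lowest against 1.28 and 1.28. In the PPARα-only regions the medians were 57 and 76 fragments on these chromosomes and 42 and 56 elsewhere. The part of chromosome copies in the number of regions was not tested.

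**Figure D3:**
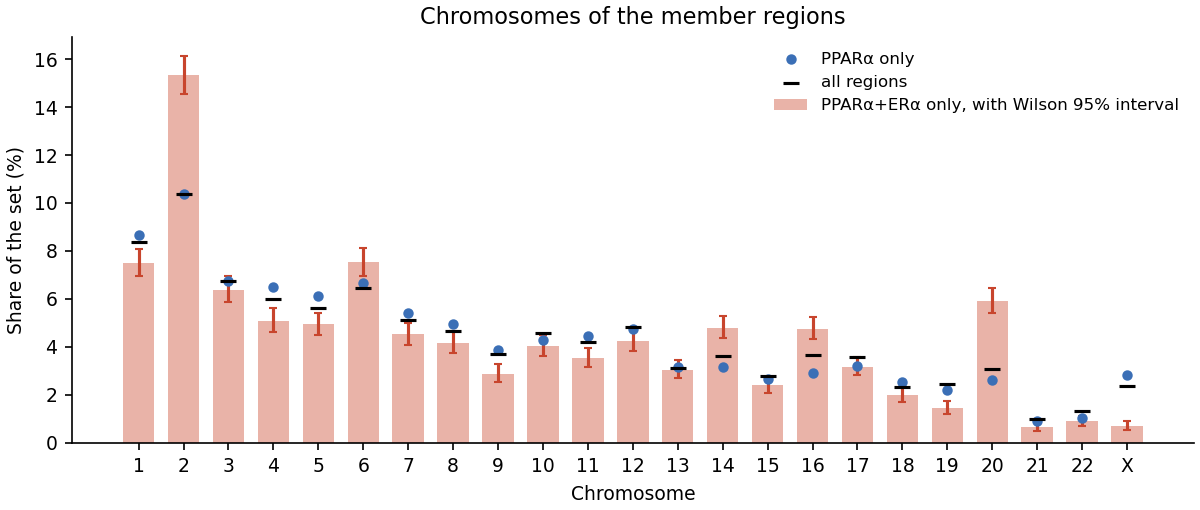
Share of the PPARα+ERα-only regions on each chromosome (bars, %, with Wilson 95% intervals), beside the share of PPARα-only regions (blue points) and of all regions (black dashes). Chromosomes 2 and 20 stand above all regions, with 15.3% and 5.93%, and X stands below, with 0.716%.

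Most of the regions lay far from genes' starts, as did most of all called regions. Within 1 kb of a RefSeq start were 176 regions, 2.21% (1.91 to 2.56%), of which 96 lay upstream and 80 downstream, and 31 were within 250 bp. Over 50 kb from any start were 40.3%, against 38.6% of all regions. Inside the span of a protein-coding gene lay 50.8%, against 49.8% of all regions. The share within 1 kb was 1.23% (0.970 to 1.56%) in the PPARα-only, 3.45% (2.53 to 4.67%) in the PPARα+ERβ-only and 1.72% in all regions. Over whole libraries, 1.95% and 1.93% of PPARα+ERα peaks lay within 1 kb of a start, against 1.52%, 1.55%, 2.05% and 1.94% in the others (exact two-sided permutation p = 0.67), so the libraries overlapped. These lists too include the regions, and without them the PPARα+ERα shares were 1.83% and 1.82%.

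Gene starts were concentrated among the strongest regions. When regions were ranked by the lower of their 2 within-list percentiles of −log10 q, 59 of the 797 in the highest decile lay within 1 kb of a start, 7.40% (5.78 to 9.43%). The other deciles held 1.63% (1.36 to 1.95%), from 0.879% to 2.14% in single deciles. In the PPARα+ERβ-only regions the highest decile held 12.3% (7.46 to 19.6%), and in the PPARα-only regions 2.05% (1.15 to 3.64%). The highest decile thus held the largest share in both other sets too.

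**Figure D4:**
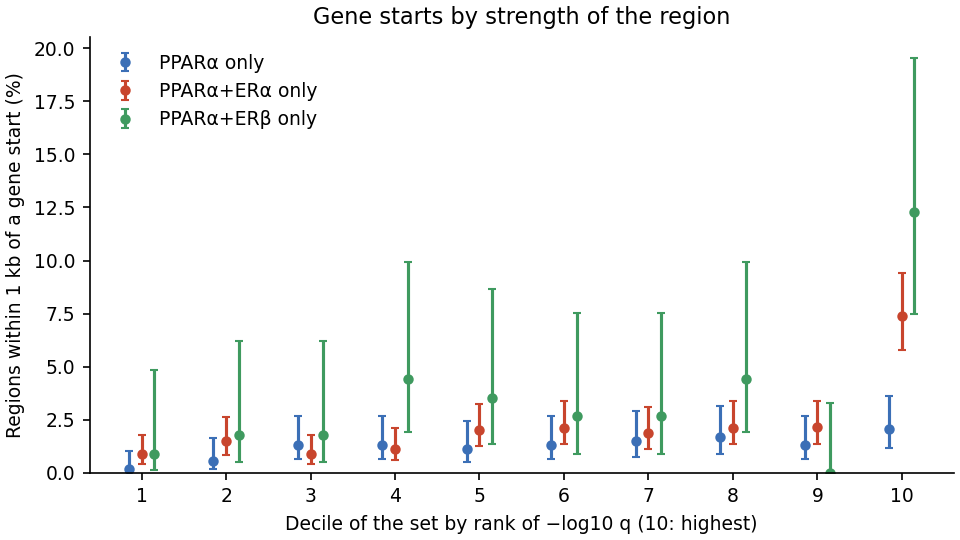
Share of regions within 1 kb of a gene start (y, %, points with Wilson 95% intervals) by decile of rank (x, 10 is the strongest) for the 3 sets of group-specific regions. In the PPARα+ERα-only set the highest decile reaches 7.40%, and every other decile is at or below 2.14%.

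The 24 protein-coding genes with the strongest regions within 1 kb of a start shared 20 regions, 4 of which were near the starts of a pair of neighbouring genes, and 12 of the 20 lay on chromosomes 2, 14, 16, 17 and 20. The strongest was chr16:70523160-70523642, with 63 and 66 fragments and folds of 32.9 and 33.5, whose summit lay 36 bp inside COG4, a subunit of the Golgi tethering complex. The same region was 298 bp from the end of the span of SF3B3, a splicing factor. PSMD1, a subunit of the proteasome's regulatory cap, had chr2:231056478-231056887 with 54 and 61 fragments, 294 bp upstream of its start. With peaks up to 500 bp apart merged, that region joined a peak of another library and left the set. NOP56, a core protein of the particles that modify ribosomal RNA, had 27 and 39 fragments on the lowest background, 942 bp downstream.

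A region with 38 and 46 fragments on chromosome 2 had its summit 282 bp inside MRPL30, a mitochondrial ribosomal protein gene, and 408 bp upstream of MITD1, a gene of cell division. PSME3IP1, which binds a proteasome activator, had 21 and 30 fragments on the lowest background, with the summit 21 bp inside the gene. MED1, the Mediator subunit that nuclear receptors contact directly, had chr17:39451160-39451572 with 27 and 38 fragments, 177 bp upstream. PSMA6, a subunit of the proteasome core, had 37 and 36 fragments 335 bp upstream. MOGAT3, an enzyme of triacylglycerol synthesis, had 28 and 20 fragments 372 bp upstream, and RPS10, a ribosomal protein, had 31 and 24 at 314 bp upstream. TXNDC11 stood apart, with 89 fragments in both libraries on a local background of 50.1 and 45.0 times the lowest, so its folds were 4.38 and 4.53. TXNDC11, MITD1, MRPL30 and CRCP left the set with low-background peaks alone, as did PSMD1, MED1, PSMA6 and RPS10. The other 12 genes were RSPRY1, GHDC, ZFHX2, ERC1, RAD52, ZMYM6, EPM2A, SMYD5, ZNF556, PARD6B, CRCP and ASB13. All 20 regions had at least 19 and 17 fragments.

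A region within 3 kb of a start was found at 602 of 19970 protein-coding genes, 3.01%, and at 37 of 667 genes on 20 lists, 5.55% (4.05 to 7.55%). A region of any kind was found at 35.2% of the list genes and 25.5% of all protein-coding genes. The lists are described by counts alone. Of 30 fatty acid oxidation genes, 4 had one. ETFA, which passes on electrons from the acyl-CoA dehydrogenases, had 24 and 23 fragments, and ACSL3, which activates long fatty acids, had 22 and 18. HADHA, of the mitochondrial trifunctional protein, had 13 and 12, and ACADM, the medium-chain dehydrogenase, had 27 and 34. The background at ACADM was 12.8 and 14.1 times the lowest, and at HADHA 1.49 and 1.49. With peaks on a background of at most 3 times the lowest alone, ETFA, ACSL3 and ACADM left the set. No PPARα-only region lay at any of the 30, and 1 PPARα+ERβ-only region did. Over all 19970 protein-coding genes, such regions lay at just 248 and 115. A region of any kind lay at 12 of the 30, or 40%, against 25.5% of all protein-coding genes. Of 28 other known PPARα targets, none had a PPARα+ERα-only region (0 to 12.1%, which includes the 3.01% of all protein-coding genes). A region of some kind lay at 7 of them.

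Among receptors and their partners, 0 of 33 nuclear receptor genes (0 to 10.4%) and 0 of 28 estrogen response genes (0 to 12.1%) had such a region. Both intervals include the 3.01% of all protein-coding genes. Of 26 coregulators, 4 had one: MED1, LCOR, a ligand-dependent corepressor, with 15 and 17 fragments, and the coactivators NCOA2, with 12 and 11, and NCOA6, with 20 and 19 on a background of 15.4 times the lowest in both libraries. NCOA6 left the set with −log10 q of at least 3, with lists of equal length and with peaks on low background alone (at most 3 times the lowest), and MED1 and LCOR left it under the last of these. The spans of PPARA and ESR2 held none of these regions out of 8 and 1 called there. ESR1 held 1 of 14, at chr6:151739860-151740300 with 10 fragments in each library, 26.0 kb from the nearest start.

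Of 57 cytosolic ribosomal protein genes, 8 had a region, 14% (7.29 to 25.3%), and 28 of the 57 had a region of any kind. Among them were RPS10, RPS7 with 15 and 21 fragments, RPS15 with 9 and 9, RPL32 with 9 and 8, RPL23 with 7 and 12, RPL10A with 6 and 9, and RPS25 with 6 and 4. Ribosomal protein genes have many near-identical processed copies, and whether the placing of short reads played a part in these calls was not tested. Of 35 proteasome genes, 3 had one: PSMD1, PSMA6 and PSMD12, a further subunit of the cap, with 26 and 30 fragments. Of 40 splicing factors, SF3B3 and SF3B1 had one, SF3B1 with 20 and 23 fragments on the lowest background. Ribosome biogenesis had 2 of 38 (NOP56 and POLR1A), mitochondrial ribosomal proteins 2 of 64, oxidative phosphorylation 3 of 59 (COX5B, UQCRC2 and NDUFV3), and cholesterol and fatty acid synthesis 2 of 27. Liver transcription factors had 1 of 20, FOXA1, the pioneer factor of liver enhancers, with 25 and 26 fragments. With low-background peaks alone FOXA1, PSMA6, PSMD1, RPS10, POLR1A, UQCRC2, CSNK1E and LYZ left the set, and LYZ also did at the stricter −log10 q. With lists of equal length LYZ, NDUFV3 and TUBB3 left it. Plasma proteins had 1 of 30 (HPX), translation factors 1 of 44 (QARS1), cell cycle genes 1 of 36 (MCM2) and clock genes 1 of 21 (CSNK1E). Markers of other tissues had 1 of 20 for neurons (TUBB3), 1 of 20 for blood (LYZ) and 0 of 20 for muscle. The peak lists hold no expression values, so the identity of the cells was not checked by markers.

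Inside genes, the regions were most numerous in long ones. MACROD2, a mono-ADP-ribose hydrolase gene that spans 2.06 Mb of chromosome 20, held 31 of the 115 regions called there. It held 4 PPARα-only and 2 PPARα+ERβ-only regions. The libraries had 60 and 51 peaks in this span with PPARα+ERα, 26 and 25 with PPARα, and 15 and 24 with PPARα+ERβ, counts that include the 31 regions by which the gene was picked. Stacks in the 31 regions had a lowest value, median and highest value of 6, 15 and 27 fragments in the first library and 4, 14 and 28 in the second. They lay from 42.9 kb to 2051 kb from the lower end of the span, with gaps of 2.44 to 234 kb and a median gap of 44.1 kb. PTPRD, a receptor phosphatase gene on chromosome 9, held 13 of 80 regions, PLCB1 on chromosome 20 held 10 of 46, LRRTM4 and ERBB4 on chromosome 2 held 9 of 31 and 8 of 44, ROBO1 on chromosome 3 held 9 of 48, and WWOX on chromosome 16 held 8 of 57. RANBP2 on chromosome 2 held 11 of 51 over the 1.12 Mb that the gene table gives it. The library counts of these genes also include the regions by which the genes were picked, which add peaks to the PPARα+ERα libraries alone. Neither their order nor a PPARα+ERα count above the others is therefore a result. Library counts with PPARα+ERα stood above all other libraries in PTPRD (29 and 32, others 14 to 26), RANBP2 (22 and 24, others 7 to 13) and LRRTM4 (16 and 16, others 5 to 7). They overlapped the others in PLCB1 (16 and 21, others 10 to 17), ROBO1 (16 and 19, others 7 to 18), WWOX (16 and 21, others 6 to 18) and ERBB4 (13 and 21, others 8 to 16). GALNT13, DPP10 and LRP1B on chromosome 2 also held 8 each, of 41, 58 and 77 regions, or 19.5%, 13.8% and 10.4%. RBFOX1 on chromosome 16 held 8 of 86, or 9.30%. The share was 8.63% over all regions, 12.8% on chromosome 2, 11.2% on chromosome 16 and 16.6% on chromosome 20. It was 6.70% on chromosome 9 and 8.16% on chromosome 3. On chromosome 20, MACROD2 and PLCB1 held 27.0% and 21.7%, and both were picked by their counts.

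**Figure D5:**
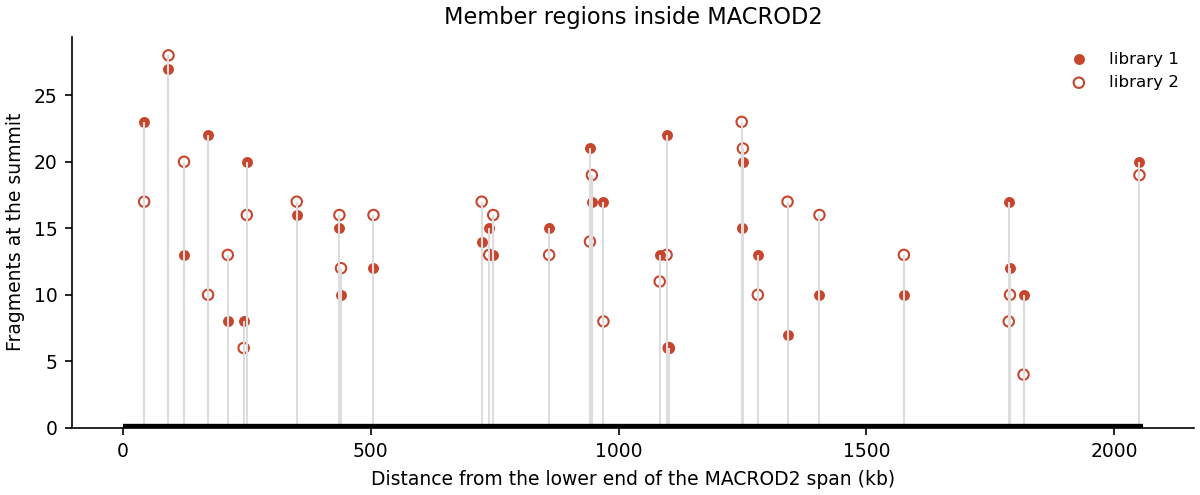
Fragments at the summit (y) of the 31 PPARα+ERα-only regions inside MACROD2 by distance from the lower end of the gene's span (x, kb, black bar), with filled points for the first and open points for the second library. The regions run along the whole span, and stacks range from 4 to 28 fragments.

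Counted in windows of 1 Mb, the densest was chr14:35000001-36000000, with 23 of its 86 regions, around PSMA6, NFKBIA, SRP54 and RALGAPA1. The window chr2:226000001-227000000, with IRS1, the insulin receptor substrate, COL4A4 and RHBDD1, held 17 of 39, or 43.6%. The share was 26.7% in the first window, 11.4% on chromosome 14, 12.8% on chromosome 2 and 8.63% over all regions. Both windows were picked by their counts, so their high shares are no result. Over all 7965 regions the median gap from one to the next was 194 kb.

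The single strongest region of the whole set by rank lay away from genes. It was chr14:34347673-34348873, 1201 bp long, with 78 and 88 fragments, folds of 39.5 and 42.8 and its summits on the same base in both libraries, 68.0 kb from the nearest gene. Among the 10 strongest regions more than 10 kb from every gene, 4 lay on chromosome 2 and 7 on chromosomes 2, 14, 16, 17 and 20 together. The next strongest, chr6:1268187-1268697 with 30 and 36 fragments, had FOXQ1, a forkhead factor gene, as its nearest start at 43.7 kb. The one at chr9:88343416-88343975 had 39 and 34 fragments, and chr2:226235879-226236293, with 17 and 29 on the lowest background, was 56.0 kb from any gene. Over all 7965 regions, the nearest peak of any of the other 4 libraries was at a median of 17.4 kb. It was within 1 kb for 0.967% (0.774 to 1.21%) and beyond 100 kb for 3.11%.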

How the data were processed

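Chromatin of HepG2 cells was digested with nuclease, sonicated and precipitated with a PPARα antibody, per the labels' protocols. Per the submitters' processing notes, which give no roles, the builds were GRCh38.p13 and hg38 and the tools MACS2 2.2.7.1, Bowtie 1.0.1, Trim Galore 0.6.4, DiffBind 2.16, HOMER 4.11 and ChIPseeker 1.18.0. The control used in peak calling is not given in the sources used here. The authors' deposited lists hold, per peak, a fold ratio over local background, a −log10 p, a −log10 q and a score that is 10 times the −log10 q, one list per library. Stack height k and background were solved from the fold, read as (k + 1) over (background + 1), and from p, read as a Poisson probability of more than k, to within 0.001 of the authors' −log10 p for 100% of peaks. SciPy 1.17.1, NumPy 2.4.6, Matplotlib 3.10.9 and pandas 2.3.3 were used under Python 3.11.15, and the steps were tested on simulated data.

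Starts came from the RefSeq promoter table of GRCh38.p14, and for 4159 protein-coding genes without an entry, either end of the gene's span was used. Intervals are Wilson 95% intervals and cover counting error only. Library shares were tested by an exact two-sided permutation test with Benjamini-Hochberg adjustment, at 0.05. Named genes were the 24 with the highest-ranking regions within 1 kb of a start, the 10 highest regions over 10 kb from every gene, up to 4 per list, the 8 genes whose spans held most regions, and PPARA, ESR1 and ESR2. Some genes under this rule are left out here. The regions and lists were chosen with earlier results of these data known. Depth limits precision: the PPARα+ERα lists had median stacks of 9 and 10 fragments, the others of 27 to 50.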

Additional observations from a re-analysis of the deposited data

Results flagged for a closer look

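Outside the chromosomes analysed, 1 peak was called on the mitochondrial genome in each PPARα+ERα library and 0 in each of the other 4 lists. It was picked out because it lies in data that no comparison used, and no test was made of it. Groups of 2 libraries were too small to look for single libraries that stand apart.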

How the results depend on the processing

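The number of PPARα+ERα-only regions stayed within 1.5 times 7965 in the alternatives that kept both ERα libraries: 6793 with −log10 q of at least 3, 5384 with lists of equal length and 6294 with peaks on a background of at most 3 times the lowest. Leaving out 1 library gave 7995 to 25133, the highest without the first PPARα+ERα library and 22285 without the second, since the set then rests on 1 library. List genes with a region ranged from 37 to 103 in the same way (103 and 68 without the first and second PPARα+ERα library), and were 19 on low background and 20 within 1 kb of a start. The share within 1 kb of a start was 2.77% with equal lists, 1.87% on low background, 7.07% within 3 kb, and 1.84 to 2.25% with 1 library left out. The share on chromosomes 2, 14, 16, 17 and 20, added after seeing the data like the MACROD2 count, was 35.4% at the stricter −log10 q, 37.6% with equal lists, 30.2% on low background (all regions then 21.9%) and 27.3 to 34.0% with 1 library left out. Without the second PPARα+ERα library MACROD2 held 56. Median stacks were 11.5 fragments with equal lists, 9.5 on low background and 9 to 10.5 with 1 library left out, against 10.5. Median background was 1.28 at the stricter −log10 q, with equal lists and on low background, 1.41 with gaps of 500 bp merged, and 1.45 to 1.57 with 1 library left out, against 1.48. The nearest peak of another library was at 102314 bp on low background, against 17395 bp. The cause of these shifts was not tested. Of 60 named regions, 40 remained on low background and 54 with equal lists. PSMD1 left the set with gaps of 500 bp merged. The difference between libraries in peaks at starts kept its direction in all alternatives, and was 0.0553 percentage points against 0.174 without the peaks of the PPARα+ERα-only regions, an alternative added after seeing the data. With so few libraries, neither this test nor those of the motifs could pass under any alternative. No paired analysis was possible because the labels number the libraries differently in each group, and replicates 1 and 2 here follow the order of deposit. At medians of 10 and 11 fragments, a site missed by chance in 1 library cannot be told from an unbound one.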
